A study of Mus musculus with 6 samples.

Results

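The sites described here are weak SP1 sites in gene deserts. They are 1194 of the 9001 SP1 sites (13.3%) in the authors' deposited table of chromatin accessibility in neural progenitor cells (NPC) against embryonic stem cells (ESC) of the mouse. A site was taken when its mean signal, the normalized read count averaged over 6 libraries, was below 20, and when its midpoint lay inside no RefSeq protein-coding gene and more than 100 kb from the nearest end of one. Each site is 500 bp wide. The 1194 sites comprised 635 on chromosome 1, 475 on chromosome 10 and 84 on the listed part of chromosome 11.

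Accessibility was measured by ATAC-seq in 3 libraries of R1 mouse ESC, an established pluripotent line, and 3 libraries of NPC that also carry the R1 name. No other genotype or treatment is given for either group, and both went from frozen cells to nuclei before the Tn5 reaction. Nothing in the labels tells whether replicate libraries are separate cultures, and the p-values then rest on a spread that may be only technical. The series belongs to a study of how tightly transcription factors bind the genome, and the comparison addresses how open SP1 sites are in each cell type.

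SP1 is a widely expressed factor with zinc fingers that recognise GC boxes in DNA, best known at the promoters of housekeeping genes. ATAC-seq uses a transposase that inserts adapters where DNA is not covered by nucleosomes, so the reads over a site follow its openness. Gene deserts are long stretches without protein-coding genes, and those beside developmental genes are known to hold distant enhancers that act on a flanking gene in some cell types and not in others.

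Every value for a site below comes from the authors' deposited table, which gives 1 mean signal, 1 log2 fold change with its standard error (SE) and 1 adjusted p-value per site, and none per library. A site is said to have risen or fallen when the authors' DESeq2 adjusted p-value was below 0.05, with the sign of the log2 fold change, NPC over ESC, giving the direction. The name of that table is the source of this direction. As a check of the labels, all 6 sites at Tfcp2l1, a pluripotency factor, fell in the authors' deposited table (median log2 fold change -3.88), as did both sites at Dnmt3l and the single site at Nodal. The single site at the neural progenitor gene Fabp7 rose by 3.54 on the log2 scale, and at Meis1 3 sites rose and 1 fell. At the progenitor gene Nr2e1 1 of 2 sites fell and none rose. Among markers of other lineages, both sites at the endoderm gene Sox17 and all 5 at the mesenchymal gene Fn1 fell, and 9 of 12 at the neuronal gene Map2 rose and 1 fell. Of the remaining markers, Prdm14 had 1 site (not called), Nr5a2 10 (2 rises, 4 falls), Prrx1 4 (1 and 2), Gja1 2 (1 and 0) and Syt1 11 (2 and 6), while Lefty1, Lefty2, Pou3f3 and Mixl1 had no listed site. The share of other cells in either culture was not tested.

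The DNA of the desert sites could be shown only where a gene start lies in them. The start windows of 20 long non-coding RNA (lncRNA) genes, each 300 bp from 250 bp before to 50 bp after the start, overlapped 21 of the 1194 sites. Of these windows 4 are printed from RefSeq (GRCm38.p6, the mm10 assembly), 5′ to 3′ in the direction of the lncRNA, because they lie over sites that moved in each direction and differ in GC boxes. Capitals mark GGGCGG, the core of the SP1 box, and GGGTGG, a weaker form, found on either strand, so that their complements CCGCCC and CCACCC are in capitals too. The windows of Gm32810 (minus strand, chr1:112416869-112417168) and of C330004P14Rik (plus strand, chr10:15791527-15791826) lie over sites that fell. The windows of Gm47708 (plus strand, chr10:95730076-95730375) and Gm46220 (plus strand, chr10:38059091-38059390) lie over sites that rose.
Gm32810: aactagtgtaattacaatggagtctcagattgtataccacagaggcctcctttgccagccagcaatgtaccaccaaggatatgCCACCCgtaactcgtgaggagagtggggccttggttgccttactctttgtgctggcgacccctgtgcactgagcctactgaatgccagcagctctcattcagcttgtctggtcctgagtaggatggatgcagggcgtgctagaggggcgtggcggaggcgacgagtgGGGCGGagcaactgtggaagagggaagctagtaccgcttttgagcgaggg
C330004P14Rik: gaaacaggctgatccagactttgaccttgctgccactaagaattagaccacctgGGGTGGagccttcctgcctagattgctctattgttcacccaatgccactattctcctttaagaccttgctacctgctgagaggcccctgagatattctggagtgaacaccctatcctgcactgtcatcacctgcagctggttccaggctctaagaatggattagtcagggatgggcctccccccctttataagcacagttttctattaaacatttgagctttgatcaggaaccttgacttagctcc
Gm47708: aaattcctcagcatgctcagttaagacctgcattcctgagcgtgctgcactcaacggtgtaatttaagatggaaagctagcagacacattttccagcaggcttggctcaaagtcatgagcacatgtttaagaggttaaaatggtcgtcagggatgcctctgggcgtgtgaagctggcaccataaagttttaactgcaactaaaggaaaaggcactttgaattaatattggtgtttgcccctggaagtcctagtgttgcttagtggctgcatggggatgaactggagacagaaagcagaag
Gm46220: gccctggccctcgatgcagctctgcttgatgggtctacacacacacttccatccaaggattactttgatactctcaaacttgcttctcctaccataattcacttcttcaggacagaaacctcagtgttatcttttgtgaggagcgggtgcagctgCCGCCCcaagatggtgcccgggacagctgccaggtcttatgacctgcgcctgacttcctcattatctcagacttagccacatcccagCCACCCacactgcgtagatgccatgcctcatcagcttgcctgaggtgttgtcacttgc

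The site over the start of Gm32810, between Dsel and Cntnap5a, fell by 4.15 on the log2 scale (SE 0.65, adjusted p = 4.69e-09 by DESeq2 in the authors' deposited table). Its window holds 1 GGGCGG and 1 GGGTGG and has a GC content of 56.0%. The window of C330004P14Rik holds 1 GGGTGG and no GGGCGG, and both overlapping sites at it fell in the authors' deposited table, to -3.76 (SE 0.79) and -5.29 (SE 1.15). The window of Gm47708 holds neither motif and has a GC content of 45.7%, and the site there rose by 3.30 (SE 0.57, adjusted p = 1.32e-07 by DESeq2). The window of Gm46220 holds 1 of each motif, and its site rose by 2.503 (SE 1.26, adjusted p = 0.033 by DESeq2) in the authors' deposited table. Its mean signal was only 3.04. The 4 printed windows were chosen to differ in direction and in GC boxes. That those with GGGCGG and those without it each lay over a fall and a rise follows from this choice. The rise with GGGCGG rests on that site of low signal alone.

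Among the 20 windows, 3 held GGGCGG (15%), beside 16.3% of all lncRNA start windows of this length, 46.2% of protein-coding ones and 35.7% of all 32851. GGGTGG was in 8 of the 20 (40.0%), beside 27.6%, 33.6% and 31.5%. Over falls it was in the windows of Gm32810, Gm40634, C330004P14Rik, Gm36543 and Gm34297 but not of Gm33035. Over rises it was in that of Gm46220 but not of Gm47708, Gm36769, Gm31592, Gm34992, 4930471E19Rik or 1110002O04Rik. The windows of Gm41966 and 4930503O07Rik, over sites not called, also held it. Motif against direction was not tested. The median GC content of the 20 was 51.5%, beside 48.3% for lncRNA windows and 56.3% for protein-coding ones. A motif match is a description of these windows and not of SP1 binding, and the windows cover only part of each site.

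In NPC, 237 of the 1194 desert sites rose and 468 fell, while 489 were not called. Of the 9001 listed sites, 22.8% rose and 32.6% fell, and 55.4% were called in either direction. The corresponding shares of the desert sites were 19.8%, 39.2% and 59.0%. Falls outnumbered rises 1.97 to 1 among the desert sites and 1.43 to 1 among all listed sites. Mean signal, which chose the sites, comes from the same comparison, so these shares are descriptions with no test. Among the 7913 listed sites with a mean signal below 20, wherever they lie, 55.8% were called, 20.9% as rises and 34.9% as falls, which leaves the share of rises close to that of the desert sites and the share of falls slightly lower.

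The median log2 fold change of the 1194 sites was -1.46, with the middle of the values between -3.20 and 1.30 (quartiles) and extremes of -6.43 and 6.51, beside a median of -0.29 over all listed sites. Of the 1194, 421 lay above 0 and 773 below. Within 1 log2 unit of 0 lay 212 (17.8%), and 2 of those 212 were called. The median SE was 1.15, so a value beyond 1 log2 unit need not be a change. That share was not set beside one for all listed sites. The median rise was 3.41 on the log2 scale, or 10.6-fold, and the median fall was -3.58, or 11.98-fold. More than 3 log2 units of change was reached by 152 of the 237 rises and 327 of the 468 falls. The smallest change that was called was 0.91 and the largest that was not was 2.80.

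Those large folds rest on few reads. The mean signal of the desert sites had a median of 3.79 (quartiles 2.504 and 6.37), which over 6 libraries is a total of 22.8 normalized reads. Below a mean signal of 1.62 no desert site was called. The 298 sites under 2.5 held 20 rises (6.71%) and 54 falls (18.1%), while the 150 sites from 10 to 20 held 52 rises (34.7%) and 70 falls (46.7%). For all listed sites in those bands, 7.93% rose and 15.3% fell under 2.5, and 28.8% rose and 30.8% fell from 10 to 20. In the band from 2.5 to 5, 18.2% of 483 desert sites rose and 42.9% fell, beside 19.4% and 40.1% of all listed sites. In the band from 5 to 10, 29.3% of 263 rose and 52.1% fell, beside 23.5% and 40.9%. A site that was not called therefore may have changed by an amount that was not detectable at this depth.

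Some of the fold changes lay close to a lowest and a highest curve against mean signal. Of the 1135 desert sites with a mean signal above 1.5, 110 lay within 0.2 log2 units of the lowest curve, with log2 fold changes from -2.80 to -6.43, and 109 of them were called. Another 42 lay as close to the highest curve, from 2.95 to 6.51, all called. Between 0.2 and 0.7 log2 units inside the lowest curve lay 1 site, and inside the highest curve 0, whereas the next 0.5 units held 156 and 65. The sites on those outer curves were taken for lying close to them. Within that tolerance the size of their fold change goes with mean signal, so their order by fold change is close to their order by signal. These curves were looked for after the values were seen, and reads per library, which would show how they arise, were not analysed here.

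**Figure D1:**
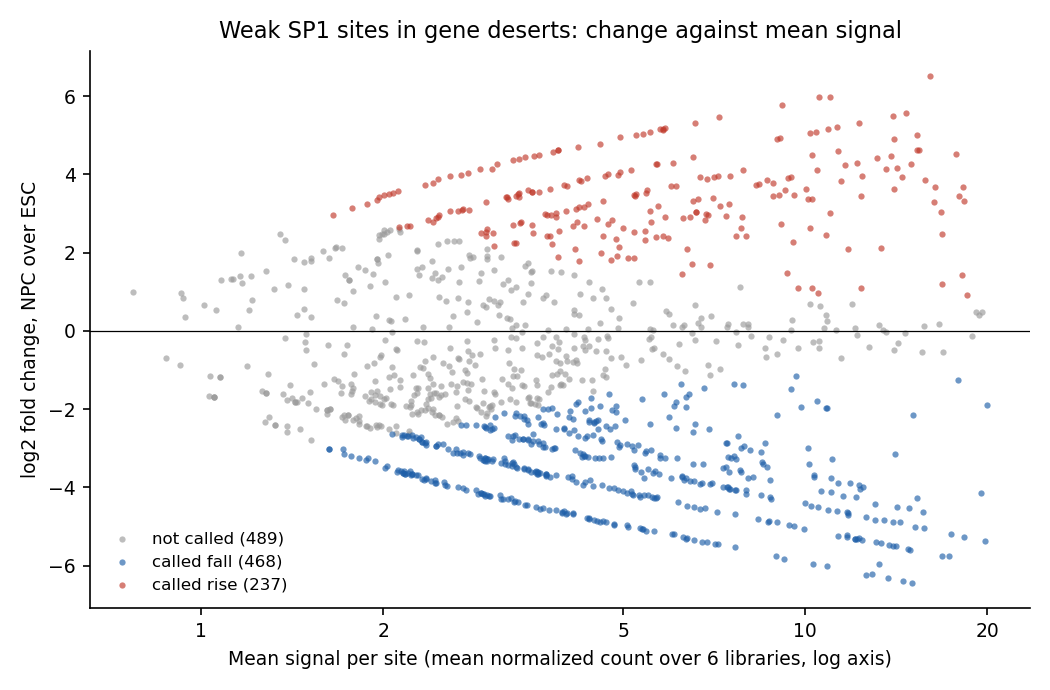
Each point is 1 of the 1194 desert sites, with its mean signal (mean normalized count over 6 libraries, log axis) against its log2 fold change, NPC over ESC, in red for the 237 called rises, blue for the 468 called falls and grey for the 489 sites not called. The outermost points form curves that fan out from low to high signal, and calls begin at a mean signal of 1.62.

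Sites just inside and just outside the limits that define the set had the following values. The 3 sites just under a mean signal of 20 had 19.6, 19.8 and 19.9993 and log2 fold changes of 0.47 (not called), -5.37 and -1.90, and the 3 desert sites just above it had 20.4, 20.8 and 20.9 and log2 fold changes of 0.11, 0.29 (neither called) and 2.00. Just beyond 100 kb the sites beside Cd24a, Cited2 and Kitl had log2 fold changes of -4.62, -2.86 and 0.77, the last not called. Just within 100 kb those beside Avpr1a, Hace1 and Vwc2 had -0.05 (not called), -4.37 and 4.27.

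The other weak sites (mean signal below 20) give the setting for these values. At protein-coding gene ends (within 1000 bp) 16.3% of 806 weak sites rose and 23.8% fell, with a median log2 fold change of -0.02, at a median signal of 10.02 and a median SE of 0.52. The desert sites had a median SE of 1.15. Inside gene bodies 23.4% of 3417 weak sites rose and 33.8% fell, with a median of -0.45. Between genes but 1 to 100 kb from one, 19.4% of 2496 rose and 38.02% fell, with a median of -0.80. Whether the classes differ was not tested, since signal differs between them and was used to choose the desert sites.

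The share of sites that rose was lowest beyond 1000 kb from any protein-coding gene. From 100 to 200 kb, 22.4% of 478 sites rose and 34.1% fell, with a median log2 fold change of -0.64. From 200 to 500 kb the shares were 21.7% and 38.8% of 451 (median -1.22), and from 500 to 1000 kb 16.3% and 46.6% of 178 (median -2.03). Beyond 1000 kb 3 of 87 sites rose (3.45%) and 47 fell (54.0%), with a median of -2.50. Median signal was lower beyond 1000 kb than from 100 to 200 kb (3.22 against 3.81). At a mean signal of 10 to 20, all 10 sites beyond 1000 kb fell, and of the 62 sites at 100 to 200 kb 41.9% rose and 38.7% fell. On chromosome 1 the share of falls went from 34.5% to 44.4%, 51.0% and 57.6% over the 4 bands, and on chromosome 10 it was 34.6%, 31.0%, 38.7% and 44.4%. The share of rises fell off in each band on chromosome 1 (22.1%, 21.03%, 13.3% and 3.39%), but on chromosome 10 it was 21.9%, 22.2% and 24.2% before 3.70% beyond 1000 kb.

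A site far from genes lies in a wide desert, so the sites were also split by width, in bands chosen after the values were seen. In the 93 gaps of up to 500 kb between flanking genes, 25.7% of 272 sites rose and 32.4% fell. The 1 site beyond Cr2, the last gene on chromosome 1, has no gap and fell. In the 45 gaps of 500 to 1000 kb, 22.3% of 300 rose and 28.0% fell, and in the 26 gaps of 1000 to 2000 kb 23.4% of 364 rose and 42.6% fell. In the 13 gaps wider than 2000 kb, 15 of 257 sites rose (5.84%) and 140 fell (54.5%), with a median log2 fold change of -2.34. The 27 sites of these wide gaps that lay only 100 to 200 kb from a gene had 14.8% rises and 59.3% falls. In gaps of 1000 to 2000 kb, the 97 sites at 500 to 1000 kb from a gene had 26.8% rises and 40.2% falls, beside 21.7% and 35% of the 60 at 100 to 200 kb, and the 81 at that distance in wider gaps had 3.70% and 54.3%.

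**Figure D2:**
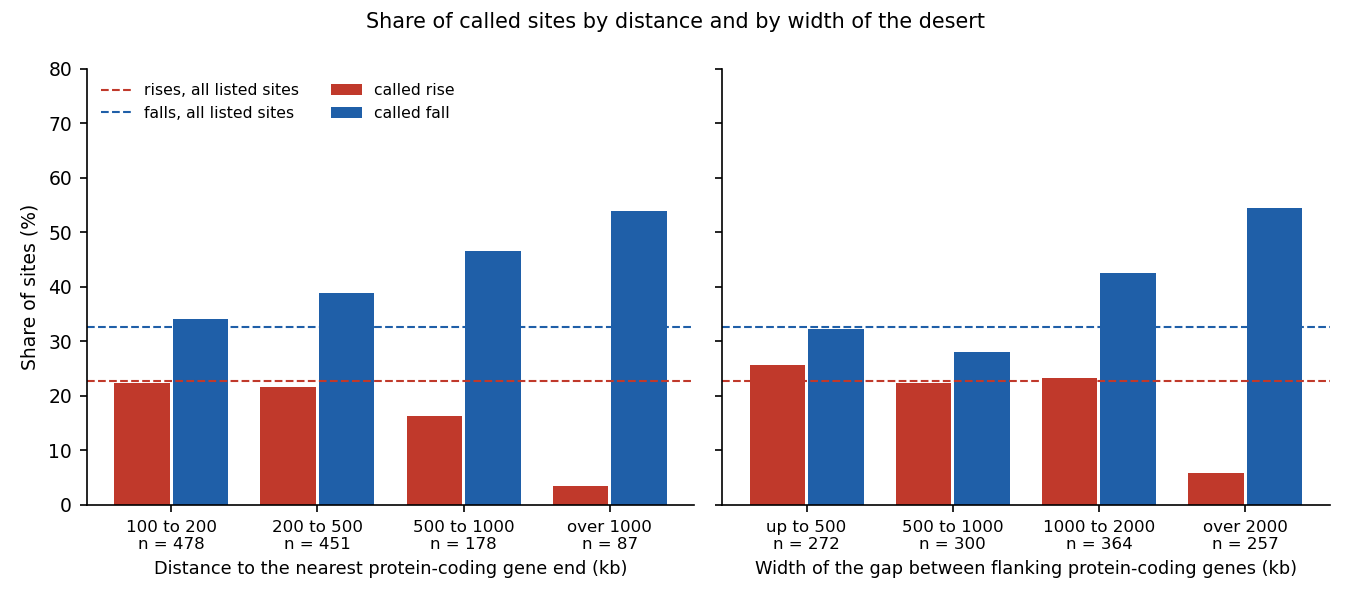
Bars give the share of desert sites that rose (red) or fell (blue) in NPC, in percent, by distance to the nearest protein-coding gene end and by width of the gap between the flanking genes, both in kb, with the number of sites under each pair. Dashed lines give the shares of all listed sites, 22.8% for rises and 32.6% for falls. Rises drop to 3.45% beyond 1000 kb and to 5.84% in gaps over 2000 kb.

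In each of the 13 wide deserts falls outnumbered rises and the median was below 0, from -1.73 to -3.90, the last in a desert with a single site (LOC102636558 to Xkr4), and -3.45 being the lowest in the others. Rises were absent from 6 of them, that one included. At a mean signal of 10 to 20, 9.09% of the 33 sites in wide deserts rose and 81.8% fell, with a median of -4.12, and at 5 to 10, 10% of 50 rose and 80% fell. By chromosome the wide deserts held 3.70% rises and 59.3% falls on chromosome 1 (162 sites in 9 deserts), and 9.21% and 44.7% on chromosome 10 (76 sites in 3). The single wide desert of chromosome 11, between Cobl and Pom121l12, held 10.5% and 52.6% of 19 sites. The split by width was not tested, because sites of 1 desert are not independent and the number of wide deserts is small.

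The 1194 sites lay in 178 deserts, which are named here by the genes on either side, with a median width of 471 kb. Of these, 32 held a single site and 85 held at least 5. In those 85, with 998 sites, falls outnumbered rises in 51, rises outnumbered falls in 19 and the counts were equal in 15. Among the 70 of them with at least 3 called sites, 55 held both rises and falls, 14 only falls and 1 only rises.

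The desert between Nmbr, a neuropeptide receptor gene, and Cited2, a transcriptional coregulator, held the most sites (33 over a gap of 2952 kb). Of these 4 rose and 16 fell, with a median log2 fold change of -1.91. The fall of smallest adjusted p, 215 kb from Nmbr, was -5.04 (SE 1.00, adjusted p = 2.26e-06 by DESeq2 in the authors' deposited table), and the rise of smallest adjusted p, 214 kb from Cited2, was 5.15 (SE 1.19, adjusted p = 2.96e-05 by DESeq2). The largest fall was -5.58 (SE 1.14, adjusted p = 2.77e-06 by DESeq2), 144 kb from Cited2 in the lncRNA Gm32543, so that end of the desert held large changes in both directions.

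In the deserts beside the neuronal adhesion genes Cntnap5a and Cntnap5b, relatives of the neurexins, almost all called sites fell, though many sites were not called. Between Cntnap5b and the cadherin gene Cdh20 (4278 kb, 32 sites) 20 sites fell and 1 rose, with a median of -2.97. Between Dsel, an epimerase-like gene of dermatan sulfate synthesis, and Cntnap5a (3820 kb, 29 sites) 19 fell and 1 rose, with a median of -2.76. On the other side of Cntnap5a, towards B020011L13Rik (1194 kb), 10 of 11 sites fell and none rose, with a median of -4.26, the highest share of falls in any desert with 5 sites. Between the cadherin gene Cdh19 and Dsel 7 of 8 fell and none rose, with a median of -3.45. These 4 deserts and that between Serpinb8 and the cadherin gene Cdh7 (18 falls and 1 rise of 22 sites, median -3.45) all lie on chromosome 1.

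The 5 sites farthest from any protein-coding gene were all in the Cntnap5b to Cdh20 desert, between 1854 and 2138 kb away. At 2138 kb the log2 fold change was -0.60 (SE 0.54, not called) and at 1854 kb it was -1.75 (SE 1.47, not called). The sites at 1957, 1888 and 1861 kb fell in the authors' deposited table, by log2 fold changes of -5.39, -1.94 and -3.90 in turn. Only 3 sites beyond 1000 kb rose. They lay in the Cntnap5b to Cdh20 desert (3.94, SE 1.04), the Dsel to Cntnap5a desert (2.43, SE 1.27) and the Nmbr to Cited2 desert (3.41, SE 1.31). In the same order, their adjusted p-values by DESeq2 were 3.23e-04, 0.039 and 0.0077.

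Other wide deserts without a rise included that between Hace1, a ubiquitin ligase, and Grik2, a kainate receptor subunit, where 12 of 29 sites fell (median -1.73). Between the zinc transporter gene Slc39a10 and Tmeff2, 11 of 24 fell, and between Brinp3 and the phospholipase gene Pla2g4a 14 of 22 fell. In the narrower desert between Ddx18 and Dpp10 (1.8 Mb), the latter encoding a potassium channel subunit, 13 of 22 fell and none rose. Between the kinase gene Frk and Amd2, 10 of 12 sites fell and 1 rose, next to a site that fell. The authors' deposited table gives 3.38 (SE 0.73) for the rise and -4.51 (SE 0.86) for that neighbour.

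Rises outnumbered falls in some deserts narrower than 2000 kb. Between 1500009L16Rik and Nuak1, an AMPK-related kinase (608 kb), 5 of 6 sites rose and none fell. The log2 fold changes of these 5, in order along the chromosome, were 3.43, 3.44, 5.46, 3.59 and 3.61, and the uncalled site among them had -0.28 (SE 0.67). Between Marcks, an actin-binding substrate of protein kinase C, and Rfpl4b, 11 of 20 rose and 4 fell (median 1.84). Between Tmem182 and Pou3f3, a POU-domain factor of the developing brain, 10 of 19 rose and 4 fell (median 2.92).

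Further deserts in which rises led lay beside known regulators. Between Slc4a3 and Epha4, an ephrin receptor, 10 of 22 sites rose and 4 fell (median 1.37). Between the homeobox gene Meis1 and Spred2, an inhibitor of Ras signalling, 6 of 15 rose and 1 fell (median 1.59), and between Gja1 (connexin 43) and Hsf2 6 of 14 rose and 1 fell (median 1.98). Between Dusp6, a phosphatase that acts on ERK, and Csl 6 of 14 rose and 3 fell (median 1.94). Between Tnp1 and Tns1 7 of 14 rose and 2 fell (median 2.53). Deserts beyond the 12 of the naming rule, here and above, were picked for their values.

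Of the 6 deserts with the most sites, 2 had medians just above 0. Between Tmpo, a nuclear lamina protein gene, and Nedd1, a centrosome gene, 6 of 26 sites rose and 6 fell (median 0.07). The strongest rise there was 4.62 (SE 0.86) and the strongest fall -4.57 (SE 1.25) in the authors' deposited table. Between Nr5a2, a nuclear receptor expressed in ESC, and Ptprc, which encodes CD45 of blood cells, 7 of 25 rose and 10 fell (median 0.14).

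**Figure D3:**
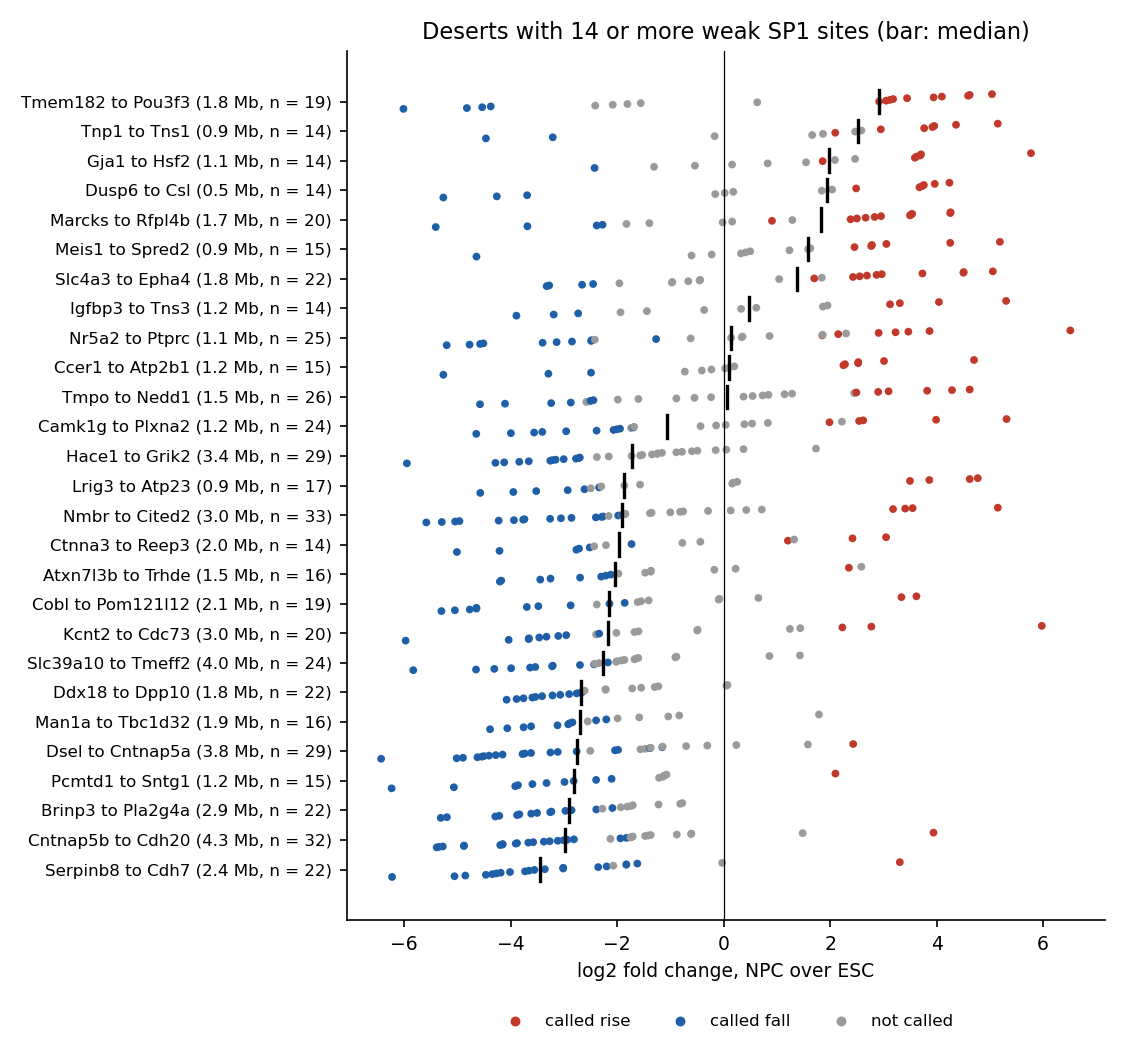
Each row is 1 desert with at least 14 weak SP1 sites, labelled with its flanking genes, width and number of sites, and each point is the log2 fold change of 1 site, NPC over ESC, coloured by call, with a bar at the median. Medians run from 2.92 between Tmem182 and Pou3f3 to -3.45 between Serpinb8 and Cdh7, and rises are scarce in the lower rows.

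Calls of 1 direction lay side by side in several deserts. In the Nr5a2 to Ptprc desert, 9 called sites in a row fell between 246 and 458 kb from Nr5a2, with log2 fold changes from -4.77 to -1.27. Towards Ptprc, 6 of the 7 called sites from 631 kb on rose, and the exception, at 778 kb, was -5.20 (SE 1.195) in the authors' deposited table. The rise of highest fold among all desert sites lies in that stretch, at chr1:137786640-137787140 in the lncRNA Gm34306, with 6.51 on the log2 scale (SE 1.14, adjusted p = 4.33e-08 by DESeq2 in the authors' deposited table).

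The Tmem182 to Pou3f3 desert had 3 such stretches. The site at 275 kb from Tmem182 fell by 6.01 (SE 1.15), and the next one along rose by 4.62 (SE 0.86), in the authors' deposited table. It opened a run of 6 rises that reached 796 kb, with log2 fold changes from 2.92 to 5.04. The 3 called sites between 1179 and 1330 kb fell (-4.37, -4.53 and -4.82), and the 4 called sites from 1495 to 1671 kb, nearest Pou3f3, rose (4.59, 3.94, 3.05 and 3.12).

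In the Slc4a3 to Epha4 desert 9 rises in a row, with no site uncalled between them, spanned 480 to 1516 kb from Slc4a3, with log2 fold changes from 1.70 to 5.06. Their last site, 292 kb from Epha4 at chr1:77074989-77075489, rose by 4.51 (SE 0.76, adjusted p = 4.48e-08 by DESeq2 in the authors' deposited table). Between Marcks and Rfpl4b, 7 rises in a row lay between 920 and 1415 kb from Marcks. They included the site over the start of Gm46220 printed above and 3 sites within the lncRNA Gm40624, an overlapping pair among them.

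**Figure D4:**
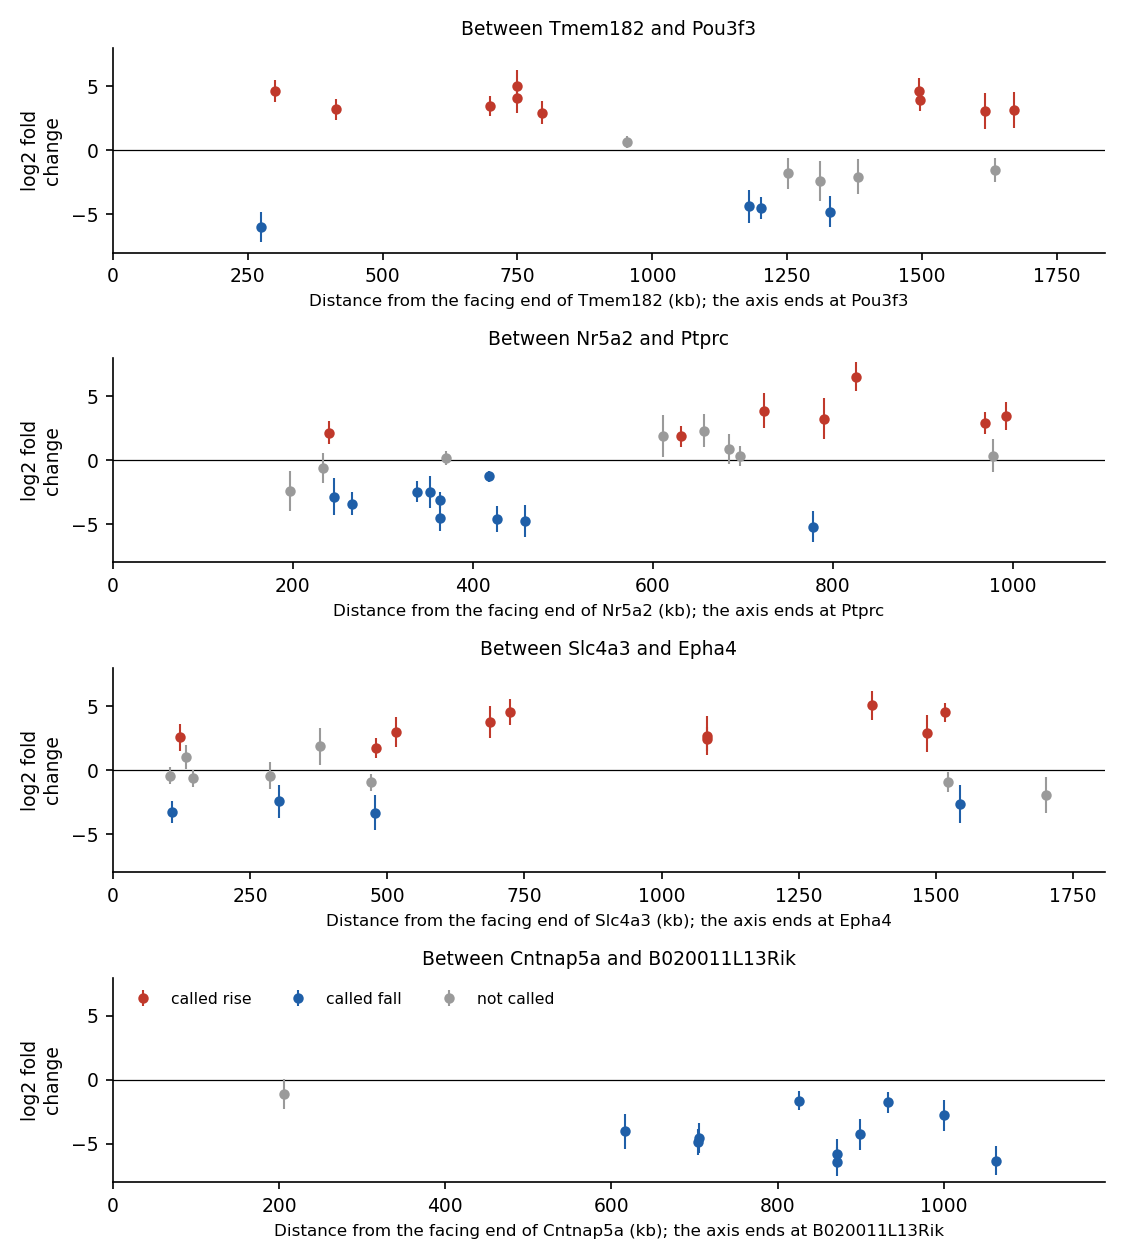
The log2 fold change of each weak SP1 site, NPC over ESC, is drawn against its distance in kb from the left flanking gene for 4 deserts, with the authors' standard error as bars and the colour giving the call. A block of 9 falls turns to rises between Nr5a2 and Ptprc, 9 rises follow each other between Slc4a3 and Epha4, and 10 of 11 sites fall between Cntnap5a and B020011L13Rik.

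Counting, after the values were seen, runs of at least 5 called sites of the same direction within a desert, and passing over uncalled ones, gave 26 runs of falls and 9 of rises. No desert held runs of both kinds. The longest run of falls, 15 sites, covered 2574 kb of the Cntnap5b to Cdh20 desert, and runs of 14 lay in the Brinp3 to Pla2g4a and Serpinb8 to Cdh7 deserts. Of 370 pairs of adjacent called sites in the same desert, 266 (71.9%) had the same direction, 73 both rising and 193 both falling. Of the 57 such pairs that straddled a gene or genes, 32 (56.1%) had the same direction. The 370 pairs within a desert include 24 of overlapping sites, which share reads, and all 24 had the same direction. The runs, too, count overlapping sites separately. At 10 to 50 kb apart, 71.7% of 127 pairs of desert sites had the same direction, beside 58.3% among all listed sites, and at 0.5 to 10 kb 64.5% of 76, beside 66.5%. At 50 to 200 kb it was 71.9% of 121, beside 62.7%, and at over 200 kb 68.2% of 22, beside 71.2%. A set with more falls than rises has many like pairs by that alone, and the excess was not tested.

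Sites that overlap share reads. Among the 1194 desert sites 60 overlapped another. Of the 30 overlapping pairs 11 rose together, 13 fell together, 4 had 1 site called and 2 had none. Another 14 pairs lay within 1000 bp without overlap, and in the 9 of these with both called the direction was the same. In 4 of the 14 the log2 fold changes had opposite signs, and none of these 4 pairs had both sites called. The pair between Tmem182 and Pou3f3 at 748 and 749 kb rose by 4.10 (SE 1.22) and 5.04 (SE 1.196) in the authors' deposited table.

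By adjusted p-value, the leading rises (1 per desert) were spread over all 3 chromosomes. The first was chr1:177623292-177623792, between the transcriptional repressor gene Zbtb18 and 1700016C15Rik, with 3.67 on the log2 scale (SE 0.59, adjusted p = 1.25e-08 by DESeq2 in the authors' deposited table), or 12.7-fold. Next came chr10:31173075-31173575, between Hey2, a target of Notch signalling, and Hddc2, with 3.44 (SE 0.56), and the sites near Ptprc and Epha4 given above. The site 138 kb from Tns3 on chromosome 11 rose by 3.31 (SE 0.55) in the authors' deposited table. On chromosome 10 the sites in the lncRNA Gm20110 (Dusp6 to Csl), over the start of Gm47708 (Nudt4 to Eea1) and in the lncRNA Gm28905 (206 kb from Stxbp5, a regulator of vesicle release) rose by 3.68, 3.30 and 3.86.

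Among the leading falls 5 of 8 were on chromosome 1. The first was the site over the start of Gm32810, and its overlapping neighbour also fell (-3.73, SE 0.80, in the authors' deposited table). It was followed by chr1:117459100-117459600, between Cntnap5a and B020011L13Rik, with -6.39 (SE 1.15), or 83.6-fold lower. The site between Pcmtd1 and Sntg1, 559 kb from the former, had -6.23 (SE 1.15), and so did the site in the lncRNA Gm41929 between Serpinb8 and Cdh7 (SE 1.15). Deserts in which rises led also held leading falls, namely -6.01 between Tmem182 and Pou3f3, -4.64 between Meis1 and Spred2 and -5.26 between Dusp6 and Csl. The remaining one, -5.37 between Cenpw and Trmt11 (SE 1.00), had a mean signal of 19.8.

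The desert sites with the highest signal did not all change. Of the 5 highest, 3 fell, and those at 183 kb from the Krüppel-like factor gene Klf7 (0.47, SE 0.36) and 111 kb from Ulbp1 (0.41, SE 0.35) were not called. The 3 of lowest signal, from 0.771 to 0.923, had standard errors of 2.104 to 2.297 log2 units and were not called.

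Flanking genes were grouped by 3 lists. Genes for neuronal adhesion, guidance, synapses and channels (27 of 42 listed genes flanked a desert) bordered 37 deserts with 340 sites, of which 8.53% rose and 50.9% fell, with a median log2 fold change of -2.14. Developmental transcription factor genes (26 of 39) bordered 28 deserts with 190 sites, of which 30.0% rose and 33.7% fell (median -0.51). Signalling ligand, receptor and feedback genes (14 of 29) bordered 16 deserts with 126 sites, of which 28.6% rose and 28.6% fell (median -0.08). Deserts with no listed gene held 580 sites, with 22.1% rises and 35.7% falls (median -1.03). The lists were chosen with earlier results of these data known, a flanking gene need not be the one a site acts on, and a desert may belong to more than 1 list.

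The neuronal list holds many of the widest deserts, and its shares moved with width. In its gaps over 2000 kb 4.05% of 148 sites rose and 60.1% fell, and in its narrower gaps 11.98% of 192 rose and 43.8% fell. Deserts with no listed gene had 6.58% rises and 46.1% falls of 76 sites in gaps over 2000 kb, and 24.5% and 34.0% of 503 in narrower ones. On chromosome 10 the neuronal list had 9.52% rises and 36.2% falls, and on chromosome 1 8.09% and 57.4%. Many of its falls lay in neighbouring deserts of chromosome 1. Beside Cntnap5a 29 of 40 sites fell, beside Cntnap5b 26 of 40 and beside Cdh7 22 of 30. Beside Cdh19 11 of 16 fell, some of them in the desert it shares with Cdh7. Beside Epha4, also on this list, 12 of 28 rose and 6 fell. The shares of the list without that stretch were not computed. Without the Nmbr to Cited2 desert, the transcription factor list had 33.8% rises and 30.6% falls of 157 sites, and its median turned from -0.51 to 0.33. With that desert kept, the list had 14.5% rises and 41.8% falls of 55 sites on chromosome 10 (median -1.53). On chromosome 1 it had 36.0% and 32.4% of 111 sites, and on chromosome 11 37.5% and 20.8% of 24. The parts of gene list and desert width in these shares were not tested apart from each other.

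Deserts without protein-coding genes still hold non-coding ones. Inside RefSeq lncRNA genes lay 165 of the sites, of which 27.9% rose and 29.1% fell (median -0.26), while 18.7% of the 1018 sites inside no RefSeq gene rose and 40.6% fell (median -1.57). Within 1 kb of the end of any RefSeq gene, 32.8% of 61 sites rose and 45.9% fell. The 254 sites more than 100 kb from RefSeq genes of all types had 11.02% rises and 48.0% falls. By lncRNA, 6030407O03Rik (Tnp1 to Tns1) held the most sites, 6, with 3 rises and no fall, and Gm31870 (Camk1g to Plxna2) held 5, with 2 falls and no rise. All 3 sites in Gm40624 rose, among them an overlapping pair, which shares reads. None of the 3 in Rmst, an lncRNA of neural differentiation, was called, at a median signal of 1.64.

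Some sites lay within 50 kb of a microRNA gene, and many of these were not called. The site 9.29 kb from Mir135a-2, between Tmpo and Nedd1, rose by 4.29 (SE 0.87, adjusted p = 4.63e-06 by DESeq2 in the authors' deposited table). The other sites near that gene were not called (-2.51 and -1.99). Both called sites near Mir181a-1, at 36.5 and 13.6 kb, rose (2.91 and 3.47), and they lie in the lncRNA Gm4258 of the Nr5a2 to Ptprc desert. Both called sites near Mir205 fell (-3.99 and -2.96). Near Mir378d, between Lrig3 and Atp23, 2 sites rose (4.77 and 4.62) and 3 fell (-4.57, -3.52 and -2.61). Near Gm51282 the called sites were a rise (3.67) and a fall (-3.80). The called site near Mir6354 rose (3.37), that near Mir6350 fell (-4.65), and those near Mir30a were not called. No microRNA level was measured here.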

How the data were processed

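ATAC-seq was done on 3 libraries of R1 ESC and 3 of R1 NPC, grouped by the labelled cell type. Per the submitters' processing notes, the authors used the mm10 build, BWA 2.1, Picard 2.23.8, MACS2 2.2.7, SAMtools 1.9 and DESeq2, with no roles given. Not given in the sources used here are the choice of SP1 sites, the DESeq2 model and any Tn5 shift of reads, each of which could change the counts. Per the file headers, the authors' deposited table holds a mean signal (DESeq2's mean of normalized counts), a log2 fold change, its standard error, a p-value and an adjusted p-value per site. Library depth is unknown, as single libraries were not analysed here, and sites carry the authors' standard error in place of an SD. The 9001 sites of the table cover chromosome 1, chromosome 10 and, up to position 20195189, chromosome 11. Coordinates are as listed, with the first base (0 or 1) not stated. Fold changes where 1 cell type has few reads depend on the authors' fit and are no bounds. Columns left unused numbered 0.

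Genes came from a RefSeq table of GRCm38.p6, with 3814 protein-coding genes on the 3 chromosomes. Distances run from the midpoint of a site to the nearest gene end. Calls used the deposited adjusted p-value below 0.05, and no test was run on the members. The members and lists were chosen with earlier results of these data known. Sites named are the 8 rises and 8 falls of smallest adjusted p (1 per desert), the 5 farthest from a gene, the 5 of highest and 3 of lowest signal and those at each limit. Deserts named are the 6 with most sites, the 3 with the highest shares of rises and the 3 of falls. Others named were chosen after their values were seen. Labels were checked on a list of 18 marker genes, and flanking genes on 3 lists of developmental factors, neuronal genes and signalling genes. Alternatives were stricter calls, adjustment restricted to listed sites, p-values from fold change over standard error, centring, other limits of signal and distance, genes of all types, 1 site per overlap, single chromosomes and leaving out the largest desert. Python 3.11.15 with pandas 2.3.3, numpy 2.4.6, scipy 1.17.1 and matplotlib 3.10.9 was used, and the scripts were tested on simulated data.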

Additional observations from a re-analysis of the deposited data

How the results depend on the processing

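Falls outnumbered rises in each of the 16 alternatives run, and the median log2 fold change was negative in each of the 12 that could move it. Its 95% interval over sites, from order statistics of sites, which are not replicates, was -1.67 to -1.24. The 16 named rises and falls were called under both other ways of adjusting or computing p. Adjustment over the listed sites gave the same counts, 237 and 468. With the p recomputed from the deposited fold change over its standard error they were 189 and 372. The deposited p-values thus do not follow from the deposited fold change and standard error alone. At an adjusted p below 0.01 the counts were 173 and 323. Signal below 5 left 108 rises and 261 falls, and signal from 5 to 20 left 129 and 207 (median -1.15). A limit of 50 kb gave 365 rises, and one of 200 kb 130 rises and 305 falls (median -1.74). With genes of all RefSeq types there were 28 rises and 122 falls (median -2.02), and rises led in 11 of 51 deserts with 5 or more sites (21.6%), beside 19 of 85 (22.4%), while falls led in 38. Chromosome 1 alone had 118 rises and 274 falls (median -1.69), and chromosome 10 alone 101 and 164 (median -1.11). These limits and chromosomes hold fewer or more sites by construction. Centring on the median of all listed sites, with p recomputed, gave 218 rises and 318 falls (189 and 372 with p recomputed and no centring) and a median of -1.18. No paired analysis was possible because the table holds no values per library, and for the same reason no library could be left out. Low signal limits calls, and under a mean signal of 2.5 only 24.8% of sites were called.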

Other observations

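Gene deserts also held 41 SP1 sites with a mean signal of 20 or more, which the set above leaves out. Of these 18 rose and 17 fell (43.9% and 41.5%), with a median log2 fold change of 0.05, and they lay in 30 deserts, 2 of which held no weak site. The smallest adjusted p among these 41 in the authors' deposited table was that of a fall between Slco6d1 and Cntnap5b, at chr1:98667383-98667883, of -4.60 (SE 0.59, adjusted p = 5.84e-13 by DESeq2). Between Meis1 and Spred2 an overlapping pair, 400 kb from Spred2, rose by 2.68 (SE 0.35) and 2.28 (SE 0.30) in the authors' deposited table. In the gap between Sec61g and the growth factor receptor gene Egfr a site rose by 6.04 (SE 0.83).

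Some stronger sites lay in deserts described above. The Dsel to Cntnap5a desert held 2, at -6.84 (SE 0.99) and -6.94 (SE 1.13), and the Cntnap5a to B020011L13Rik desert 1, at -6.29 (SE 1.14), all called as falls in the authors' deposited table. The Marcks to Rfpl4b desert held 1 rise of 6.23 (SE 1.12), and the Tmem182 to Pou3f3 desert 1 of 1.97 (SE 0.31). The Nr5a2 to Ptprc desert held 1 fall of -5.97 (SE 0.99), 214 kb from Nr5a2, and a weak site that rose (2.15, SE 0.90) lay between it and the run of falls that begins at 246 kb. Between Kcnt2 and Cdc73 the single stronger site was not called (-0.48, SE 0.32). Between Gli2, a mediator of Hedgehog signalling, and the activin subunit gene Inhbb, 2 sites moved in opposite directions, with 5.95 (SE 0.98) and -5.25 (SE 0.74).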
